A study of Mus musculus with 6 samples.

Results

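The 10 genes described here encode proteins of the acute-phase and innate inflammatory response and a pair of the C/EBP transcription factors linked to it, in B16-OVA cells. They are Cebpb, Cebpd, Lcn2, Hp, Steap4, Saa3, Orm1, S100a8, C3 and Ptx3, matched by symbol, and they are 10 of the 56734 gene symbols in the count table. They were chosen by name with the difference between the genotypes already known. Their differences are therefore given as a description, with no test. B16-OVA is a derivative of the mouse melanoma line B16 that makes chicken ovalbumin as a model antigen. Polyadenylated RNA was sequenced from 3 libraries labelled WT and 3 labelled Ythdf2-KO. All 6 came from cells grown in DMEM with serum, and no added cytokine or other stimulus is named in the labels. Sample titles hold gNC for WT and gY2 for Ythdf2-KO, tags that the labels do not spell out. The labels do not say whether the knockout cells were 1 clone or a pool, or whether replicates were separate cultures. Each p-value below therefore rests on the spread between these libraries, which may be technical. YTHDF2 is a reader protein of N6-methyladenosine that speeds the turnover of mRNAs with this mark.

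The acute-phase response is the rapid change in secreted proteins that follows infection or injury, and it is best known from the liver. Interleukin 6 (IL-6) and its relatives act through STAT3, and interleukin 1 (IL-1), interleukin 17 (IL-17) and tumor necrosis factor (TNF) through NF-kappaB. C/EBP-beta and C/EBP-delta, which are themselves induced by these signals, bind many of the same promoters. Cells outside the liver, epithelial and tumor cells among them, can also make some of these proteins, such as lipocalin 2 and the mouse protein SAA3.

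Total counts ran from 55660473 to 69497273 per library. Levels are CPM, scaled by the trimmed mean of M values (TMM), unless another unit is named. A count of 3 in a library equalled 0.0433 to 0.0540 CPM. The WT libraries, here and below in the order of replicates 1 to 3, held 124, 124 and 125 CPM of Ythdf2 mRNA and the Ythdf2-KO libraries 100.07, 101 and 104 CPM (log2 fold change -0.29 ± 0.026, edgeR adjusted p = 4.08e-13). Such counts do not show the edited bases or how much protein was made. The 8 melanocyte markers examined, among them Pmel, Tyr, Tyrp1 and Slc45a2, were detected in every library. Their summed level was 242 to 246 CPM in WT and 1441 to 1469 CPM in Ythdf2-KO. All 8 passed upward, against 24.1% of all genes tested, and the median of their log2 fold changes was 2.79. In bulk RNA, fewer cells of a type and less RNA per cell cannot be told apart.

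All 10 genes were lower in Ythdf2-KO, and the depth of the fall differed widely between them. The knockout mean was 0.419% of the WT mean for Lcn2, 1.57% for Saa3, 4.14% for C3, 4.79% for S100a8, 6.31% for Hp, 19.7% for Cebpd and 59.6% for Cebpb. Steap4, Orm1 and Ptx3 were at or near a few counts. Added together, the 10 genes amounted to 1643.5, 1643.6 and 1619.6 CPM in the WT libraries and to 94.2, 94.4 and 97.9 CPM in the knockout. Lcn2 made up 63.3 to 64.2% of their counts in WT and 4.40 to 4.82% in Ythdf2-KO, where Cebpb made up 67.7 to 68.8%. Every Ythdf2-KO library lay below every WT library for each of the 10 genes, a pattern found in 28.9% of the 17718 genes tested, while libraries of the genotypes were apart in either direction in 55.9%. Because the choice of genes used this contrast, nothing is read from that count. For Orm1 it rests on the scaling alone, since WT replicate 1 and Ythdf2-KO replicate 1 held 4 counts each.

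**Figure D1:**
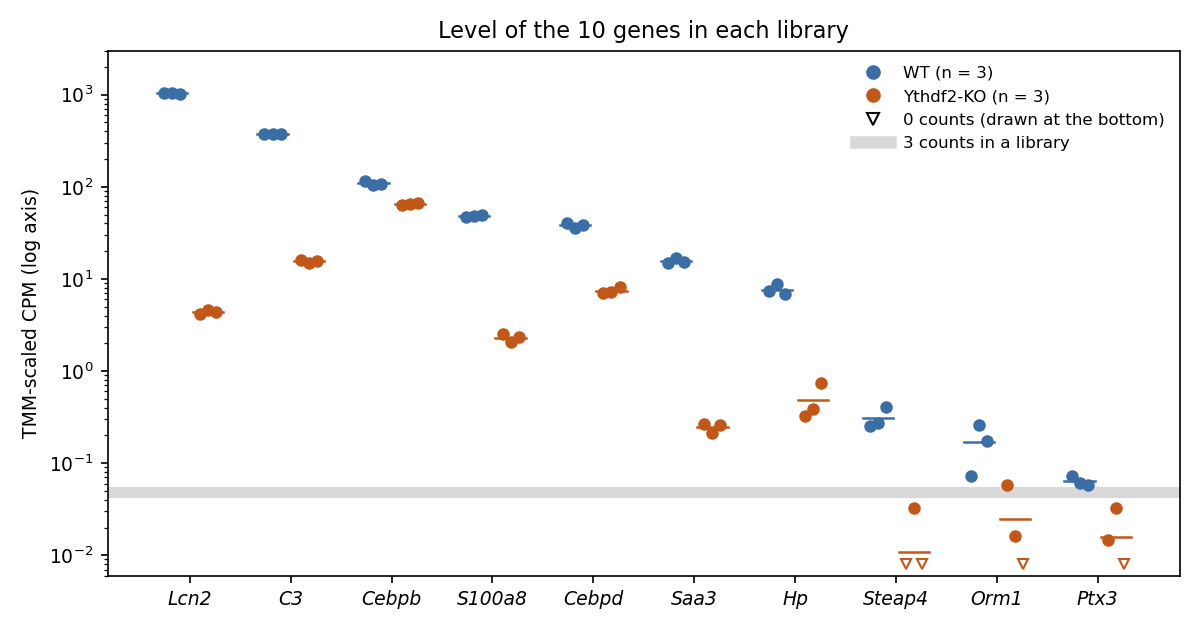
TMM-scaled CPM (log axis) of the 10 genes in each of the 3 WT and 3 Ythdf2-KO libraries, with each group's mean as a bar, libraries with 0 counts as open triangles at the bottom, and the level that 3 counts represent as a gray band. Lcn2 drops from 1042 to 4.36 CPM, Cebpb only from 109 to 65.1 CPM, and Steap4, Orm1 and Ptx3 lie within or below the band in Ythdf2-KO or close to it.

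Among the 8 tested genes of the set, the differences of the transcription factor genes were the smallest. Cebpb encodes C/EBP-beta, known as NF-IL6 for its binding to IL-6-responsive promoters. The WT libraries held 115, 105 and 108 CPM and the Ythdf2-KO libraries 63.9, 65.0 and 66.3 CPM. The groups did not overlap, and the difference on the log2 scale was -0.75 ± 0.031 (SE, 3 libraries a group). Cebpd encodes C/EBP-delta, a family member with low basal levels in many cells that rises in the acute-phase response. The WT libraries held 40.2, 35.5 and 38.3 CPM and the Ythdf2-KO libraries 7.04, 7.25 and 8.16 CPM, with a log2 fold change of -2.34 ± 0.061. The WT level of Cebpd was thus about 5.07 times the knockout level, against 1.68 times for Cebpb. In the annotation, Cebpd overlaps Spidr on the opposite strand, and Cebpb overlaps Tmem189. Whether the counting used strand is not known here, and without strand, reads from such shared stretches cannot be told apart.

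The other tested genes of the C/EBP family fell less. Cebpg, whose product lacks a transactivation domain of its own and pairs with other C/EBP proteins, went from 64.4 ± 1.15 to 47.6 ± 0.341 CPM (SD, n = 3; log2 fold change -0.44 ± 0.034, edgeR adjusted p = 4.17e-15). Ddit3, which encodes the stress-induced member CHOP, went from 30.2 ± 1.28 to 24.8 ± 0.895 CPM (log2 fold change -0.28 ± 0.048, edgeR adjusted p = 2.45e-06). Cebpa had 0 counts in all 6 libraries, and Cebpe 0 to 14. Of the 17718 genes tested, 25.8% passed downward at an adjusted p under 0.05, 24.1% upward and 49.9% in either direction. Of all calls, 48.3% were upward, and 59.2% with upper-quartile scaling.

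Levels can be compared between genes only per length, so CPM was divided by the exon length of each gene in kb. This length is the union of all annotated exons of the gene and can exceed that of the mRNA made. Shares, orders and ranks on this scale therefore depend on the annotation. On that scale the family summed to 117, 109 and 111 CPM per kb in the WT libraries and to 67.6, 68.5 and 68.8 CPM per kb in those of Ythdf2-KO. Cebpb supplied 64.3 to 65.3% of this sum in WT and 62.8 to 64.02% in Ythdf2-KO. The share of Cebpd was 8.74 to 9.24% in WT and 2.78 to 3.16% in Ythdf2-KO, while that of Ddit3 was 15.2 to 16.4% and 20.2 to 21.9%. By this annotated length, Cebpb was the most abundant C/EBP mRNA in every library of both genotypes.

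**Figure D2:**
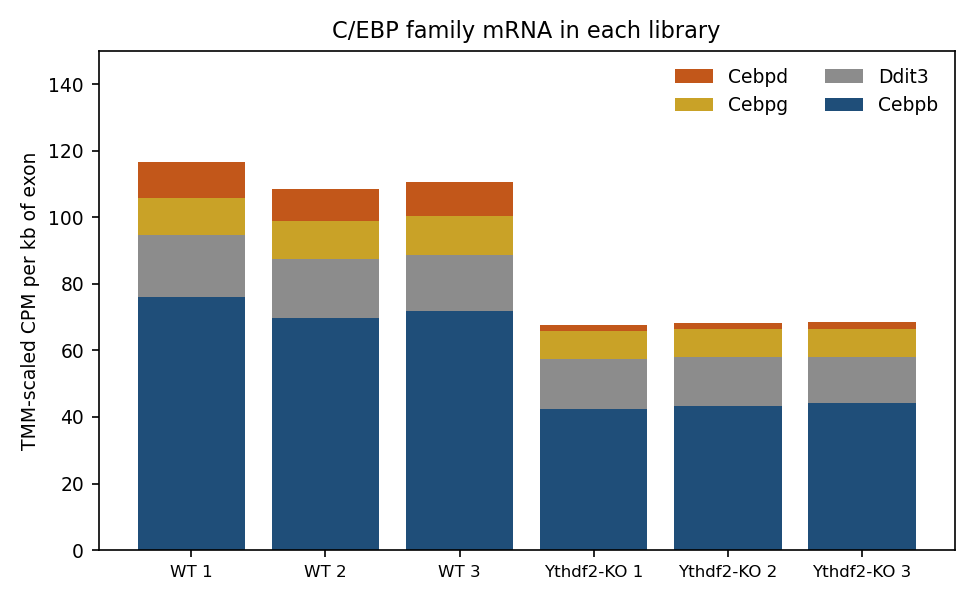
TMM-scaled CPM per kb of exon (linear axis from 0) of Cebpb, Ddit3, Cebpg and Cebpd, stacked for each of the 3 WT and 3 Ythdf2-KO libraries. The stacks reach 109 to 117 CPM per kb in WT and 67.6 to 68.8 CPM per kb in Ythdf2-KO, with Cebpb as the largest block throughout; Cebpa and Cebpe, at or near 0, are not drawn.

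The promoters of 7 of the 10 genes were matched by symbol to RefSeq sequences on GRCm38.p6, as windows from 250 bases before to 50 bases after the annotated start. Those of Hp, Orm1 and Cebpd were not matched. Each window was searched on both strands for TTNNGCAA, the core of the C/EBP motif. It occurred in 5 of the 7 (Lcn2, Saa3, C3, Ptx3 and Steap4), against 10.8% of the 32851 promoter windows in the table. The set was chosen by name as acute-phase and C/EBP-linked genes, so nothing is read from this share. Positions count from the annotated start, whose base is +1. The match lay from -216 to -209 in Lcn2, from -99 to -92 in Saa3, from -45 to -38 in C3, from -57 to -50 in Ptx3 and from -87 to -80 in Steap4. The S100a8 and Cebpb windows held no match. The sequences of the 4 most abundant effector genes are shown in full up to the start, because their mRNAs carry most of the fall, and those of Ptx3 and Steap4 as 60 bases around the match. They are written 5′ to 3′ on the strand of the gene, and capitals mark the C/EBP match or, in S100a8, the TATAAA match from -30 to -25.
Lcn2, chr2:32387740-32387989, minus strand: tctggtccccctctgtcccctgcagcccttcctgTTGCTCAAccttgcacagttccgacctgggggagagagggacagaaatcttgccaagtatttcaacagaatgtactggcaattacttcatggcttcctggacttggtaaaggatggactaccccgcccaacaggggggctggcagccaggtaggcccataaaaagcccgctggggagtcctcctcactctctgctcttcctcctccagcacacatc
Saa3, chr7:46715677-46715926, minus strand: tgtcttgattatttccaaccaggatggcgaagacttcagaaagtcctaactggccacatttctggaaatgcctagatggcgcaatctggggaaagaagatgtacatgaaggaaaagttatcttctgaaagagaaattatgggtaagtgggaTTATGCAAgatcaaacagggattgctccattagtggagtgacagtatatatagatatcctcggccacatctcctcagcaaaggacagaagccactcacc
C3, chr17:57228137-57228386, minus strand: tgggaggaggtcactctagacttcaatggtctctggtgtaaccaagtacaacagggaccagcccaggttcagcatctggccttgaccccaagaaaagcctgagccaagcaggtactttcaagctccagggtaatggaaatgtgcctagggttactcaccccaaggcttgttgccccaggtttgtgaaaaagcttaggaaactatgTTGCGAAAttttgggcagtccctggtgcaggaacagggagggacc
S100a8, chr3:90668821-90669070, plus strand: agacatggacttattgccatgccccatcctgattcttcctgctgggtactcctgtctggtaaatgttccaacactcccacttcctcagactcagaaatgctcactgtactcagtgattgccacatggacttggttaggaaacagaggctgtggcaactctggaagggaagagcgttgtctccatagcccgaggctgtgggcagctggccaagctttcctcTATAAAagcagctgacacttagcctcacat
Ptx3, chr3:66219804-66219863, plus strand: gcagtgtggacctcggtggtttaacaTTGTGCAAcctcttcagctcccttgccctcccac
Steap4, chr5:7960359-7960418, plus strand: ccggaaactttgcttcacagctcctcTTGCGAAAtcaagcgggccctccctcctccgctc

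The kappaB consensus motif, the target of NF-kappaB, was found in the windows of Ptx3, across the start, and of Steap4, and in 8.46% of all windows. The STAT motif TTCNNNGAA was found in that of Steap4 alone, from -116 to -108, and in 8.30% of all. The AP-1 motif TGANTCA was found in 0 of the 7 and in 7.81% of all, and TATAAA in 4 of the 7 and in 13.6% of all. Of the TATAAA matches, only that of S100a8 lay before the start on the strand of the gene. Those of Cebpb and C3 lay after it, from +22 to +27 and from +15 to +20. That of Steap4 lay on the other strand, from -215 to -210. None of these matches overlapped the C/EBP matches. They describe letters in a window of 300 bases and are not measured binding sites.

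The genes for metal and siderophore handling held the largest fall of the set. Lcn2 encodes lipocalin 2, which withholds iron from bacteria by binding their siderophores. The WT libraries held 1045, 1055 and 1025 CPM of it and the Ythdf2-KO libraries 4.14, 4.55 and 4.39 CPM. The libraries of a genotype lay within a few percent of each other, with a coefficient of variation of 1.44% in WT and 4.72% in Ythdf2-KO. On the log2 scale the difference was -7.90 ± 0.034 (SE, 3 libraries a group), the 6th largest fall among the 17718 genes tested. Per kb of exon, Lcn2 ranked 64th of 16758 tested genes with a known length in WT and 10400th in Ythdf2-KO. It alone took 0.102 to 0.104% of all counts in WT.

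Hp encodes haptoglobin, which binds free hemoglobin. Its level was 7.33, 8.77 and 6.83 CPM in the WT libraries and 0.322, 0.389 and 0.736 CPM in the knockout, with a log2 fold change of -3.97 ± 0.19. Ythdf2-KO replicate 3, with 51 counts against 22 and 24, was the highest of the knockout libraries. The same library held 74 counts of the leukocyte gene Ptprc, against 2 and 0 in the other Ythdf2-KO libraries. Other leukocyte genes went both ways in that library. Laptm5 was the highest of the knockout there, at 12.3 against 11.5 and 11.7 CPM. Cd68, at 13.0 against 15.5 and 14.2 CPM, and Lyz2, at 10.7 against 13.1 and 11.9 CPM, were the lowest. Without Ythdf2-KO replicate 3 the log2 fold change of Hp was -4.42, and the part of leukocyte RNA in the Hp count was not tested.

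Steap4 encodes a membrane reductase of iron and copper that is known to respond to inflammatory cytokines. It held 14, 18 and 28 counts in WT and 0, 2 and 0 in Ythdf2-KO, which is 0.312 ± 0.0846 CPM (SD, n = 3) against at most 0.0324 CPM. It met the filter on low counts through the WT libraries alone. The ratio of WT to Ythdf2-KO counts, scaled by depth, was 31.5 (95% exact interval 8.36 to 266, counting error only). Without Ythdf2-KO replicate 2, which held both counts, WT was at least 7.15-fold higher, taking 3 counts in each knockout library as the floor. The 3 STEAP relatives had far more counts and differed by little. Steap3 went from 317 ± 8.61 to 282 ± 7.999 CPM (log2 fold change -0.17 ± 0.024, edgeR adjusted p = 3.82e-08) and Steap2 from 154 ± 1.49 to 139 ± 1.85 CPM (log2 fold change -0.15 ± 0.025, edgeR adjusted p = 7.48e-07). Steap1, the nearest tested protein-coding gene on the lower-coordinate side of Steap4, was at 55.6 ± 2.43 and 53.6 ± 0.573 CPM and did not pass (edgeR adjusted p = 0.236).

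Among the secreted acute-phase proteins, Saa3 encodes a serum amyloid A that mice make mainly outside the liver. The WT libraries held 14.8, 16.8 and 15.2 CPM and the knockout libraries 0.263, 0.211 and 0.260 CPM, that is 13 to 18 counts per knockout library. The groups were far apart, with a log2 fold change of -5.98 ± 0.14. The other serum amyloid A genes, which lie in the same cluster and share sequence, were near the detection limit. Saa4 held 16 to 23 counts per WT library and 2 in each Ythdf2-KO library and fell (log2 fold change -3.21 ± 0.65, edgeR adjusted p = 4.69e-05). Saa1 held 4 to 6 counts in WT and 1 or 2 in Ythdf2-KO, and Saa2 3 to 10 and 0 to 4. Since similar sequences can share reads, part of these low counts may stem from Saa3, which was not tested.

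Orm1 encodes orosomucoid 1, a plasma carrier of lipophilic compounds. It held 4, 17 and 12 counts in WT and 4, 1 and 0 in Ythdf2-KO and was too low to be tested. The depth-scaled ratio of summed counts was 6.94 (95% exact interval 2.69 to 22.8, counting error only). Its paralog Orm3 held 13 to 18 counts in WT and 8 to 16 in Ythdf2-KO and did not pass (log2 fold change -0.35 ± 0.49, edgeR adjusted p = 0.594). Hpx, which encodes the heme scavenger hemopexin, was equally low, at 0.243 ± 0.0862 and 0.148 ± 0.0729 CPM, and did not pass either (log2 fold change -0.68 ± 0.52, edgeR adjusted p = 0.302). The pentraxin genes Crp and Apcs, whose products are classical plasma reactants, had 0 counts throughout.

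The innate immune effectors of the set were abundant in WT apart from Ptx3. C3 encodes the central protein of the complement cascade. The WT libraries held 374, 374 and 376 CPM, a coefficient of variation of 0.271%, and the knockout libraries 15.9, 14.9 and 15.7 CPM. Its log2 fold change was -4.59 ± 0.030, so 24.1 times as much was present in WT. S100a8 encodes a calcium-binding subunit of calprotectin. Its level was 47.1, 47.9 and 49.7 CPM in the WT libraries and 2.52, 2.06 and 2.35 CPM in the knockout (log2 fold change -4.38 ± 0.067). S100a9, which encodes its usual partner in calprotectin, held 0, 0 and 7 counts in WT and 0 in each Ythdf2-KO library. The mRNA of S100a8 was thus present with next to none of that of S100a9 in all 3 WT libraries. Ptx3, which encodes a long pentraxin made at sites of inflammation, held 4 counts in each WT library and 1, 2 and 0 in Ythdf2-KO. Its depth-scaled ratio was 4.21 (95% exact interval 1.14 to 23.2, counting error only).

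The order of the levels changed with genotype. Per kb of exon, WT cells held Lcn2 at 397 ± 5.73 CPM per kb (SD, n = 3). C3, Cebpb and S100a8 followed at 72.8 ± 0.197, 72.6 ± 3.27 and 69.5 ± 1.93 CPM per kb, and each of these overlapped its neighbor in the order. Cebpd came next at 10.1 ± 0.629, then Saa3 at 5.99 ± 0.413 and Hp at 4.76 ± 0.626 CPM per kb. In Ythdf2-KO the order began with Cebpb at 43.3 ± 0.787 CPM per kb, followed by S100a8 and C3 at 3.33 ± 0.337 and 3.01 ± 0.104, which overlapped. Cebpd at 1.998 ± 0.158 and Lcn2 at 1.66 ± 0.0784 CPM per kb came after them. Lcn2, the highest of the set in WT, was thus the 5th in Ythdf2-KO. Orm1, Steap4 and Ptx3 were the lowest in both. The order within a genotype rests on the annotated exon lengths.

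The fall of these genes was set beside their chromosomal neighbors, taken as the nearest tested protein-coding gene on each side in the GRCm38 annotation. Genes that were not tested were passed over and distance was not limited, so a neighbor in this sense need not be adjacent or close. This comparison was chosen after the values of the set were known. Of the 20 neighbors, 8 passed downward, 3 passed upward and 9 did not pass, and 1 fell by more than 1 on the log2 scale. That gene was Saa4, beside Saa3. Over all genes tested, 25.8% passed downward, 24.1% upward and 49.9% in either direction. Lcn2 lies between Ciz1, with means of 66.9 CPM and 67.7 CPM (log2 fold change 0.019 ± 0.033, edgeR adjusted p = 0.680), and Ptges2, which fell by 0.48 on the log2 scale (SE 0.043, edgeR adjusted p = 3.47e-13). C3 lies between Tnfsf9 (log2 fold change -0.73 ± 0.059, edgeR adjusted p = 1.47e-14) and Gpr108 (log2 fold change 0.075 ± 0.033, edgeR adjusted p = 0.0553). For S100a8 the nearest tested genes were S100a7a, which did not pass (edgeR adjusted p = 0.845), and S100a11, which rose from 277 to 294 CPM (edgeR adjusted p = 0.00106). S100a9 was not tested and so could not be taken as a neighbor. Spidr, which overlaps Cebpd, fell by 0.57 on the log2 scale (SE 0.044, edgeR adjusted p = 1.86e-15). Veph1, which overlaps Ptx3, rose from 8 counts over the WT libraries to 63 over the Ythdf2-KO libraries.

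**Figure D3:**
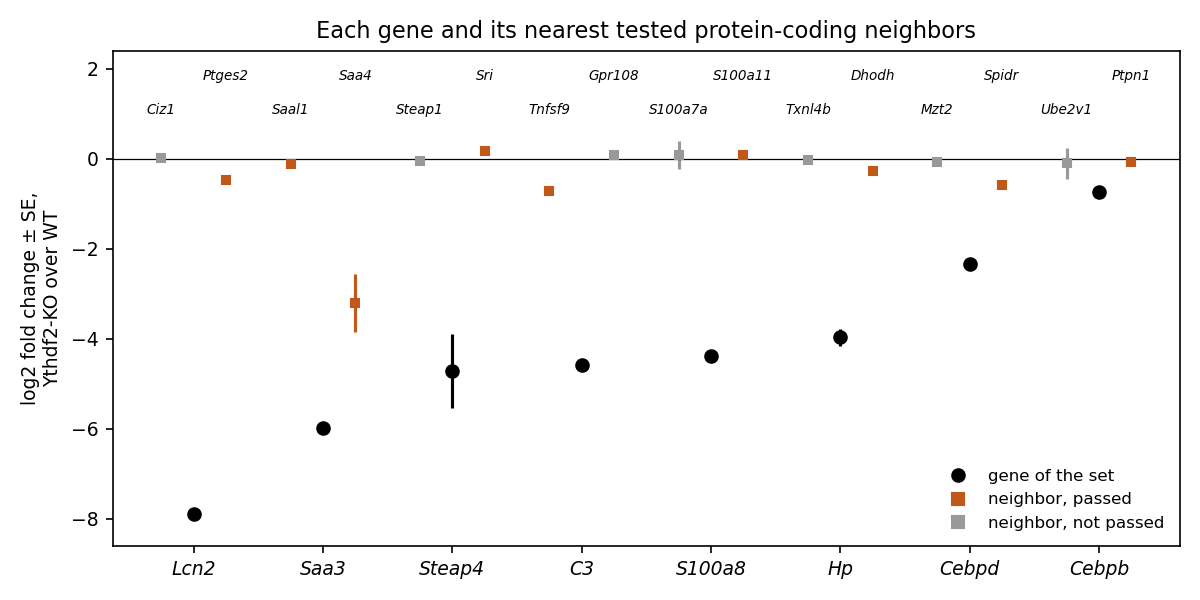
Log2 fold change of Ythdf2-KO over WT (± SE, 3 libraries per group) for the 8 tested genes of the set (black) and their nearest tested protein-coding neighbors on the chromosome (squares, orange where they passed, gray where not). Lcn2 lies at -7.90 with its neighbors Ciz1 and Ptges2 at 0.019 and -0.48, and Saa4 beside Saa3 is the neighbor with the largest fall at -3.21.

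Of 32 other positive acute-phase genes, 18 were tested, 11 fell and the other 7 did not pass, against 25.8% of all genes tested that passed downward. Their median log2 fold change was -0.79 against -0.0053 over all genes tested. Serping1 and Saa4 among them met the filter on low counts through the WT libraries alone. The count and the median rest partly on such genes. Cp encodes ceruloplasmin, a copper-carrying ferroxidase. Each WT library held 323 CPM and the knockout libraries 64.5, 60.8 and 64.6 CPM (log2 fold change -2.35 ± 0.026, edgeR adjusted p = 1.37e-47). Il1rn, which encodes the IL-1 receptor antagonist, fell 4.004-fold from 1.68 ± 0.235 CPM (edgeR adjusted p = 3.59e-09). Lbp, which encodes the lipopolysaccharide-binding protein, fell 3.91-fold from 2.87 ± 0.276 CPM (edgeR adjusted p = 3.67e-12). Serping1, which encodes the C1 inhibitor, fell from 2.27 ± 0.226 to 0.0434 ± 0.0520 CPM (log2 fold change -5.60 ± 0.38, edgeR adjusted p = 2.08e-16). Without Ythdf2-KO replicate 3, which leaves 2 knockout counts, its depth-scaled ratio of WT to Ythdf2-KO counts was 148 (95% exact interval 40.7 to 1225, counting error only), against 50.4 with all libraries. Of the 14 not tested, 5, including the fibrinogen genes Fga and Fgb, had 0 counts in every library. The 10 hepatocyte markers summed to 0.972 to 1.24 CPM in WT and 0.732 to 1.64 CPM in Ythdf2-KO, and 4 of them had 0 counts throughout. Of the 2 that could be tested 0 passed, by edgeR, DESeq2 or limma-voom, and 0 had an unadjusted edgeR p under 0.05.

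Complement genes other than C3 moved in both directions. Of 27, 15 were tested, 5 fell and 6 rose, and the median of their log2 fold changes was 0.025. Over all genes tested 25.8% passed downward and 24.1% upward, so movement in both directions is not particular to complement. Besides Serping1, the genes that fell were C1s1 and C1ra, which encode proteases of the C1 complex, C1rl and C8g. C1s1 went from 125 ± 3.60 to 62.5 ± 1.58 CPM (log2 fold change -1.01 ± 0.030, edgeR adjusted p = 1.36e-30) and C1ra from 48.2 ± 2.76 to 29.9 ± 1.45 CPM (log2 fold change -0.69 ± 0.044, edgeR adjusted p = 1.17e-17). Among those that rose were C2 and C4b, which encode parts of the classical C3 convertase. C2 rose 3.24-fold to 2.29 ± 0.123 CPM (edgeR adjusted p = 1.03e-09) and C4b 2.09-fold to 1.98 ± 0.0695 CPM (edgeR adjusted p = 1.62e-05). Clu, which encodes the complement-binding chaperone clusterin, rose 1.35-fold to 54.5 ± 1.68 CPM (edgeR adjusted p = 2.26e-13). C8g no longer passed once replicate 3 of each genotype was left out (edgeR adjusted p = 0.0631).

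Of 14 receptors and partners of these proteins, 7 were tested, 3 fell and 4 did not pass, against 25.8% of all genes tested that fell. The median of their log2 fold changes was -0.50. Tlr2, which encodes an innate receptor reported for serum amyloid A, fell most. The WT libraries held 45.9, 45.9 and 46.1 CPM and the knockout libraries 0.790, 0.745 and 0.808 CPM (log2 fold change -5.87 ± 0.078, edgeR adjusted p = 4.65e-44). Tlr4, which encodes a receptor reported for S100A8, was at 51.7 to 54.1 CPM in the WT libraries and 52.1 to 54.5 CPM in the knockout and did not pass (edgeR adjusted p = 0.887). C3ar1, which encodes the receptor for the fragment C3a, fell 1.66-fold from 3.93 ± 0.225 CPM (edgeR adjusted p = 2.84e-05). Tnfaip6, whose product binds PTX3 in the hyaluronan matrix, fell 1.42-fold from 4.02 ± 0.639 CPM (edgeR adjusted p = 0.00225), although its libraries overlapped between the genotypes.

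Of 14 genes for cytokine ligands of the response, 11 were tested, 8 fell, 1 rose and 2 did not pass. Of all genes tested, 25.8% passed downward. The median of the ligands' log2 fold changes was -2.68. Some of them, Il6 and Il1a included, met the filter on low counts through the WT libraries alone. The count and the median rest partly on such genes. Il6 held 76, 94 and 111 counts in WT and 6, 0 and 0 in Ythdf2-KO (log2 fold change -5.53 ± 0.48, edgeR adjusted p = 4.58e-12). Without Ythdf2-KO replicate 1 WT was at least 32.1-fold higher, with the same floor. Il1a fell from 1.58 ± 0.243 to 0.0933 ± 0.0646 CPM (log2 fold change -4.04 ± 0.35, edgeR adjusted p = 1.15e-13, and -4.66 without Ythdf2-KO replicate 1). Lif, which encodes an IL-6 family cytokine, was by far the most abundant of these by CPM, with 160, 146 and 156 CPM in the WT libraries and 23.7, 24.4 and 23.9 CPM in the knockout (log2 fold change -2.68 ± 0.034, edgeR adjusted p = 1.70e-44). Il33 fell 4.98-fold to 2.39 ± 0.153 CPM (edgeR adjusted p = 3.05e-24). The gene that rose was Clcf1 (log2 fold change 0.13 ± 0.051, edgeR adjusted p = 0.0383), and its call was lost without WT replicate 2, Ythdf2-KO replicate 1 or Ythdf2-KO replicate 2 (edgeR adjusted p = 0.103 to 0.290). Il17a had 0 counts throughout.

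Receptors and transducers of IL-1, IL-6, IL-17 and TNF changed by smaller amounts. All 28 were tested, 21 fell and 3 rose, against 25.8% and 24.1% of all genes tested. The median of their log2 fold changes was -0.30. The largest falls were those of feedback and NF-kappaB genes. Nfkbia, which encodes the inhibitor IkappaB-alpha, fell 3.51-fold from 166 ± 1.87 to 47.2 ± 0.912 CPM (edgeR adjusted p = 2.28e-41). Socs3, which encodes an inhibitor of IL-6 signaling induced by STAT3, fell 2.51-fold from 41.1 ± 0.962 to 16.4 ± 1.14 CPM (edgeR adjusted p = 1.74e-26). Bcl3 and Relb fell 2.05- and 1.78-fold (edgeR adjusted p = 1.13e-14 and 5.89e-20). The genes that rose were Il6ra, Irak4 and Irak1, with log2 fold changes of 0.48 ± 0.036, 0.36 ± 0.048 and 0.26 ± 0.027 (edgeR adjusted p = 1.66e-15, 1.68e-08 and 1.88e-11). Stat3 itself, which ranged from 108 to 109 CPM in the WT libraries and from 101 to 107 CPM in the knockout, did not pass (edgeR adjusted p = 0.102).

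Regulators of C/EBP proteins and of inflammatory mRNAs also split. Of 16 tested, 9 fell and 3 rose, against 25.8% and 24.1% of all genes tested. The median of their log2 fold changes was -0.085. Trib2, which encodes a pseudokinase known to promote the breakdown of C/EBP-alpha, fell from 30.1, 31.2 and 31.4 CPM in the WT libraries to 3.26, 3.34 and 3.65 CPM in the knockout (log2 fold change -3.17 ± 0.070, edgeR adjusted p = 2.46e-35). Its relative Trib3 fell 1.704-fold (edgeR adjusted p = 1.79e-19). Zc3h12a encodes Regnase-1, an endonuclease of inflammatory mRNAs, and fell from 58.1 ± 1.31 to 11.4 ± 0.520 CPM (log2 fold change -2.35 ± 0.047, edgeR adjusted p = 3.31e-37). N4bp1 fell 1.31-fold (edgeR adjusted p = 4.70e-15). Zfp36, which encodes tristetraprolin, a protein that promotes decay of mRNAs with AU-rich elements, rose from 42.0 ± 0.644 to 107 ± 1.98 CPM (log2 fold change 1.35 ± 0.032, edgeR adjusted p = 1.94e-34). Its relative Zfp36l2 rose 1.498-fold to 457 ± 8.28 CPM (edgeR adjusted p = 3.61e-25). Fbxw7 rose by 0.15 on the log2 scale (edgeR adjusted p = 0.0172), a call lost in 4 of the 6 fits that left out a single library (edgeR adjusted p = 0.0511 to 0.0880).

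**Figure D4:**
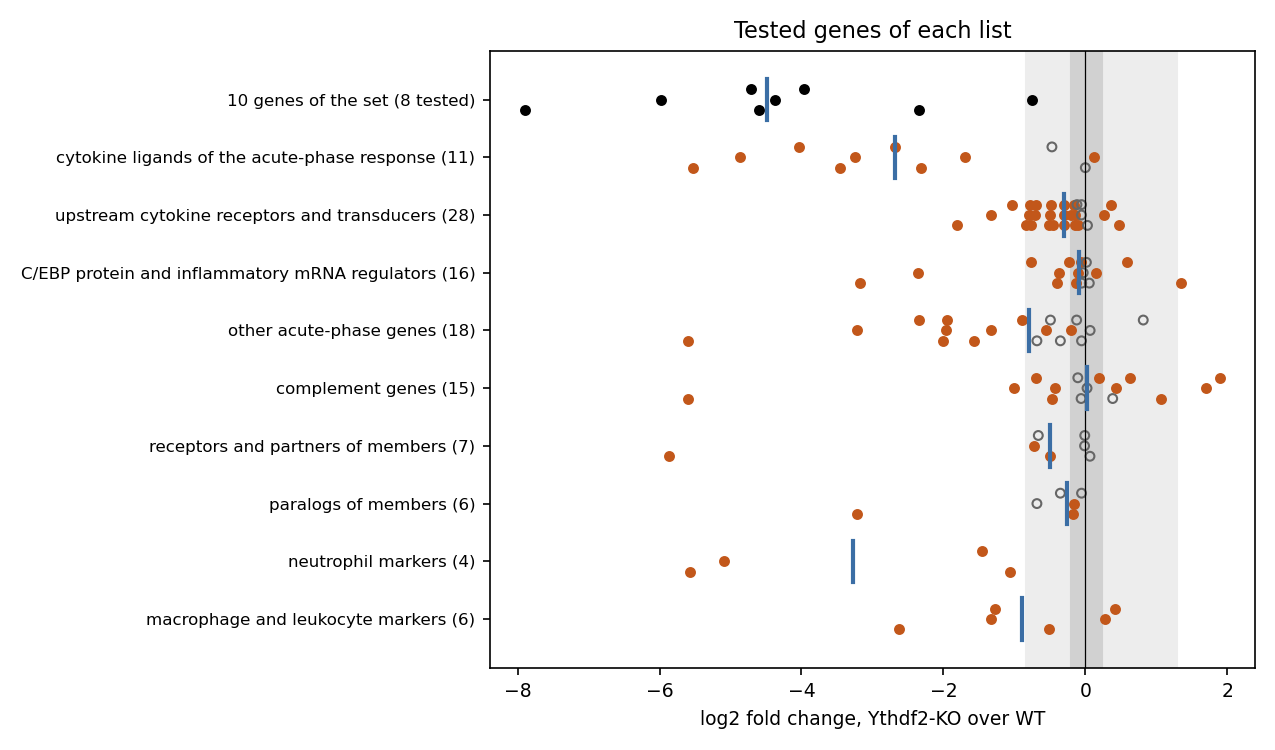
Log2 fold change of Ythdf2-KO over WT for the tested genes of each list (number in brackets), filled where the gene passed at an edgeR adjusted p under 0.05 and open where not, with the list's median as a blue bar; black points are genes of the set, and gray bands span the 5th to 95th and 25th to 75th percentiles of all 17718 genes. Cytokine ligands have a median of -2.68 and complement genes of 0.025, while the genes of the set run from -7.90 to -0.75. Some of the genes drawn, Il6, Il1a, Serping1, Saa4, Mmp8 and Camp included, met the filter on low counts through the WT libraries alone.

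Lcn2, S100a8, Hp and C3 are also made by neutrophils and macrophages, so markers of these cells were measured. Of 15 neutrophil markers, 11 were too low to test. Among the 4 tested, Mmp8 and Camp met the filter on low counts through the WT libraries alone. The count of markers that fell rests partly on these genes. Ly6g and Fcnb had 0 counts in all libraries, and Elane, Mpo, Csf3r and Cxcr2 at most 2 counts in a library. S100a9, Ltf, Retnlg and Itgam held 7, 6, 8 and 4 counts in WT replicate 3 and 0 in every other library. The 4 that could be tested fell: Mmp8, from 4.84 ± 0.511 to 0.101 ± 0.0384 CPM (edgeR adjusted p = 3.82e-24), Camp, from 1.09 ± 0.0625 to 0.0307 ± 0.0170 CPM (edgeR adjusted p = 5.46e-13), Prtn3 (edgeR adjusted p = 3.57e-05) and Mcemp1 (edgeR adjusted p = 0.0132). Of all genes tested, 25.8% passed downward. The call for Mcemp1 was lost without WT replicate 1, WT replicate 2 or Ythdf2-KO replicate 2 (edgeR adjusted p = 0.0540 to 0.0784). The summed level of the list was 7.42 to 8.89 CPM in the WT libraries and 1.11 to 1.19 CPM in the knockout, and the part of neutrophil RNA in the falls was not tested. Without WT replicate 3 the log2 fold changes of Lcn2, Saa3 and S100a8 were -7.91, -6.00 and -4.36.

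Of 15 macrophage and leukocyte markers, 6 were tested and all 6 passed, against 49.9% of all genes tested. Cd14, Cd68, Adgre1 and Mrc1 fell, and Laptm5 and Lyz2 rose, with log2 fold changes of -1.33, -0.52, -2.63, -1.27, 0.42 and 0.28 (edgeR adjusted p = 1.29e-21, 1.78e-09, 0.000754, 0.00400, 1.75e-05 and 0.00212). Mrc1 no longer passed once replicate 3 of each genotype was left out (edgeR adjusted p = 0.113). The summed level was 61.7 to 65.3 CPM in the WT libraries and 46.9 to 50.7 CPM in the knockout. Ptprc, the marker of all leukocytes, was at 2 to 6 counts in WT and at 2, 0 and 74 counts in the Ythdf2-KO libraries. The T cell gene Cd3e held 8 counts in Ythdf2-KO replicate 3 and at most 2 in any other library. C1qc had 0 counts in every library.

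Over the 6 libraries, the genes outside the set most like Lcn2 were those with a comparable drop. Likeness was the Euclidean distance between centred log2 CPM values, among tested genes whose higher group averaged 100 counts or more. The nearest were Gprc5d, Slc7a2, Gm14275, Cxcl5 and Slc16a9, at distances of 0.821, 1.44, 1.59, 1.88 and 1.998. Each of these held 8 counts or fewer in any Ythdf2-KO library, and 208 to 692 counts in the WT libraries. With a pair of genotypes in 3 libraries each, this measure reflects little besides the size of the fall.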

How the data were processed

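The authors deposited whole-number counts per gene symbol with no normalization, 1 column per library. Per the labels' protocols, poly(A) RNA was fragmented, made into libraries with a KAPA RNA HyperPrep kit and read as paired ends on an Illumina NovaSeq. Per the submitters' processing notes, fastp 0.23.2, HISAT2 2.2.1, featureCounts 2.0.6 and the build GRCm39 were used. Whether counting used strand, and how multiply aligned reads were handled, the sources used here do not say.

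Columns were mapped to samples by the labels. All 10 genes, the gene lists and the tests were chosen with earlier results of these data known. The test ran in edgeR 4.0.16 under R 4.3.3. The filter filterByExpr left 17718 of 56734 genes, which were scaled by TMM factors of 0.981 to 1.02, and compared by a robust quasi-likelihood test with p-values adjusted by Benjamini-Hochberg over the whole table tested. Of the 10 genes 8 passed the filter, Orm1 and Ptx3 did not. Steap4, and outside the set Il6, Il1a, Serping1, Saa4, Mmp8 and Camp among others, passed it through the WT libraries alone. Errors of log2 fold changes are the estimate divided by the square root of its F statistic. Intervals of count ratios are 95% exact (Clopper-Pearson) and cover counting error only, as do floors of 3 counts. Exon lengths, the union of a gene's annotated exons, and neighbors came from GENCODE M21 (GRCm38). They were matched on symbols, as the counts rest on another build. The code was tested on simulated counts. Named genes were the set, Ythdf2, all tested C/EBP relatives and paralogs, the 4 largest called falls and rises of each list with a mean of at least 1 CPM in the higher group, genes where 5 or fewer of a list were called in a direction, and the 5 genes nearest to Lcn2. Others named were chosen after their values were seen. Some genes of the lists that this rule would name are not reported here. Alternatives were RLE and upper-quartile scaling, factors computed after removal of mitochondrial and the 20 most abundant genes, no filter, a mean of at least 5 CPM, the replicate block, DESeq2 1.42.0, limma-voom (limma 3.58.1) and leaving out libraries. Python 3.11.15 and matplotlib 3.10.9 drew the figures.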

Additional observations from a re-analysis of the deposited data

How the results depend on the processing

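The 8 tested genes of the set had negative log2 fold changes under every alternative that could be fitted, 15 for each gene but Steap4, which the filter at a mean of 5 CPM removed. Their values ranged from -7.93 to -7.85 for Lcn2, from -6.04 to -5.89 for Saa3, from -4.61 to -4.54 for C3, from -4.45 to -4.31 for S100a8, from -4.50 to -3.74 for Hp, from -2.41 to -2.29 for Cebpd and from -0.77 to -0.69 for Cebpb. For Steap4, with 0 or 2 counts in each knockout library, the fitted size depends on the prior count and no range is given; without Ythdf2-KO replicate 2, WT was at least 7.15-fold higher. The median over the tested genes of the set, -4.49, was -4.35 at a mean of at least 5 CPM and -4.49 to -4.32 with single libraries left out. The filter at a mean of at least 5 CPM tested fewer genes, so fewer were called lower: 6 other acute-phase genes, 1 receptor or partner, 2 cytokine ligands, 0 neutrophil markers and 2 macrophage and leukocyte markers, and it left 3 complement genes called higher. Without replicate 3 of both genotypes, 2 macrophage and leukocyte markers were called lower. With single libraries left out, 0 to 1 cytokine ligands were called higher; the cause was not tested. Upper-quartile scaling moved the share of calls that were higher in Ythdf2-KO from 48.3% to 59.2% and the median log2 fold change of all genes from -0.0053 to 0.049. Among the chromosomal neighbors, the call for Saal1 was lost in 13 alternatives, that for Ptpn1 in 7 and that for Col27a1 in 2, and Gpr108 passed in 7. Same-numbered libraries of the genotypes correlated by 0.046, -0.093 and -0.12 in their deviations from the group means. Differently numbered libraries correlated by -0.061 to 0.14. The labels do not say what the numbers share, and values from 3 libraries a group cannot exclude a shared batch. With the replicate block, 4132 genes were called higher and 4409 lower, against 4270 and 4569 without it. With the block 4 receptors or partners were called lower in place of 3 and 8 regulators in place of 9, and the counts of the other lists were the same. Genes at a few counts, Orm1, Ptx3 and Steap4, are limited by depth.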
